A study of Mus musculus with 8 samples.

Results

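Myeloid cell genes are genes used by monocytes, macrophages and their relatives, and 41 of them were followed here through cultures of Th17 cells, as a measure of other cells in those cultures. The members were taken by gene symbol from a fixed list, with a mean normalized count of 10 or more over the 8 samples as the only condition on their level. All 41 had values and met it, out of 22829 genes with values. The rule used no difference between the groups, but the list was drawn up with earlier results of these data known.

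The study asked what SUMOylation of ROR-γt, the attachment of the small protein SUMO to the transcription factor that drives Th17 cells, does to these cells. CD4+ T cells lacking ROR-γt (ROR-γt-/-) were pulled from splenocytes with magnetic beads, given ROR-γt back by lentivirus and grown under Th17 conditions. The WT group (4 samples) received WT-ROR-γt and the K187R group (4 samples) received K187R-ROR-γt, in which the lysine that carries SUMO is an arginine. RNA seq was done on each sample. Both groups share the deletion, the lentivirus and the Th17 culture, and the transgene is made from a viral vector in the transduced cells only, so a culture can hold transduced and untransduced cells and whatever else passed the beads. The age and sex of the animals are not in the sources used here. The deposited description speaks of WT and mutant mice, 4 of each, while the paper describes transduced cells, and neither says whether the 4 samples of a group came from separate animals or cultures, so p-values measure the spread between these samples only.

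Monocytes and macrophages arise from progenitors under the transcription factor PU.1 together with members of the C/EBP family. They take up particles and microbes through Fc receptors, lectins and scavenger receptors, read microbial products through Toll-like receptors, and digest what they take up in lysosomes. Spleen holds many of them, and bead purification of T cells can leave some behind. Several of the members are also used elsewhere, for example Spi1, Fcgr2b and Tlr7 in B cells and Fcer1g, Lilrb4a and Cebpa in granulocytes or mast cells, so no single member marks 1 cell type.

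Gene counts came to 52456804 to 74676721 reads a sample, and 3 reads, taken as the smallest detectable count, were worth 2.54 to 3.56 normalized counts. A normalized count is the reads of a gene divided by the size factor of its sample. The T cell list of 15 genes summed to between 282597 and 341133 normalized counts, so the cultures carried the RNA of T cells in every sample. Cd28, the member of that list with the highest mean, lay between 33894 and 49399. Il17f, the Th17 cytokine with the highest mean in a list of 7 Th17 genes, lay between 10238 and 24917. The samples did not cluster by group. Clustering over 16835 genes, without the members and the marker lists, gave 3 sets. K187R replicate 1 fell with WT replicates 1 and 3 (set 1), K187R replicates 2 and 3 with WT replicate 2 (set 2), and K187R replicate 4 with WT replicate 4 (set 3). Xist, the RNA made from an inactivated X chromosome, was at 17290, 17373 and 13564 normalized counts in the samples of set 2 and at 3.56 to 23.7 in the other 5. Each group thus holds samples with and without Xist RNA, and its 4 samples were not all repeats of 1 source of cells. The groups were not balanced in this. Xist RNA was in WT replicate 2 only among the WT samples, but in K187R replicates 2 and 3. Set 1 in turn held WT replicates 1 and 3 but only K187R replicate 1. These sets were drawn from the data and are not groups of the study.

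Short stretches of DNA just upstream of 4 members are shown first. The 4 were taken as examples of patterns that differed by sample, and motifs were not compared between the patterns. C1qb and Clec4e were highest in the samples of set 2, Ccl6 and Trem2 in those of set 3. Each line is the 250 bases before the start of a RefSeq transcript (GRCm38.p6), on the strand of the gene and 5′ to 3′, with matches to either of a pair of motifs in capitals. The motifs are the core of PU.1 sites, GAGGAA, which reads TTCCTC on the other strand, and a site for C/EBP factors, TTGCNNAA, searched on both strands. Neither motif contains the other. The windows lie upstream of C1qb at chr4:136886201-136886450 (minus strand), of Clec4e at chr6:123289872-123290121 (minus strand), of Ccl6 at chr11:83593088-83593337 (minus strand) and of Trem2 at chr17:48346151-48346400 (plus strand), and 0 of their bases lie in annotated exons.
C1qb: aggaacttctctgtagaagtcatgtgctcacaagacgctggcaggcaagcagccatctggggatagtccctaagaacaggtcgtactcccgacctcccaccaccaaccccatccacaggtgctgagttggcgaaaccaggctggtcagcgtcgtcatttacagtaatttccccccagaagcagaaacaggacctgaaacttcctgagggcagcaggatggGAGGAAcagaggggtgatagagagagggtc
Clec4e: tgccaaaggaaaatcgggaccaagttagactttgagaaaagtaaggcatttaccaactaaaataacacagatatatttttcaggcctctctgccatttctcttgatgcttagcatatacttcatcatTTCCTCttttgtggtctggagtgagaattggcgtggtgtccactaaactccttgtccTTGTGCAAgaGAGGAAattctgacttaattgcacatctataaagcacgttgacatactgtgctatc
Ccl6: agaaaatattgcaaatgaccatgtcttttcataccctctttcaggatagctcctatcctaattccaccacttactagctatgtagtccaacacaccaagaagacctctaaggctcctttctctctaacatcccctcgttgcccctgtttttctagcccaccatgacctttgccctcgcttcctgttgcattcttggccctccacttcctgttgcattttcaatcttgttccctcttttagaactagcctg
Trem2: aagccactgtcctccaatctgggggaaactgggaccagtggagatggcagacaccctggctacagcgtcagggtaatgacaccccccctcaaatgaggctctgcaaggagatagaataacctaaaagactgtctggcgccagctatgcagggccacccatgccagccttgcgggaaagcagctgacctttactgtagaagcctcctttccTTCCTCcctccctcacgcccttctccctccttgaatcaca
The C1qb and Trem2 windows each hold 1 match to the PU.1 core, the Clec4e window holds 2 together with 1 match to the C/EBP motif, and the Ccl6 window holds 0 of either. Windows were found for 27 of the 41 members, 32 windows in all. Those 27 leave out Adgre1, Arg1, C1qa, Cd14, Clec4n, Csf1r, Lilrb4a, Lpl, Msr1, Sirpa, Spi1, Tlr4, Tlr7 and Tyrobp. The PU.1 core was in 19 of the 32 windows (59.4%, 16 members), and in 23.3% of the 32851 windows of the same length over all genes. The C/EBP motif was in 6 of the 32 (18.8%, 5 members), against 9.56% of all. Another motif, the E-box CACGTG, which reads the same on both strands, was in 0 of the 32 against 6.02% of all. These are matches of letters, and they do not show where a factor was bound in these cells.

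The summed level of the 41 members was 69035, 131669, 69188 and 149345 normalized counts in WT replicates 1 to 4, and 102141, 128200, 130632 and 156555 in K187R replicates 1 to 4. The least was in WT replicates 1 and 3, K187R replicate 1 came next, and the other 5 samples lay together above them, so the groups overlapped. Between 0.110% and 0.260% of all normalized counts of a sample fell on the members. Set against the T cell list, the sum ranged from 22.7 to 45.9 normalized counts per 100 of that list, and the T cell list itself varied only 1.21-fold. In bulk samples fewer cells of a type and less RNA per cell cannot be told apart. On a log2 scale the mean sum was higher in K187R by 0.30, and by 0.30 without Lyz2, the member with the highest counts. The sum was not higher in K187R in every set. In set 2 the WT sample (131669) was above both K187R samples (128200 and 130632), and in sets 1 and 3 the K187R sample was above the WT samples. The sets are not balanced between the groups, and no difference within them was computed for the sum. Without WT replicate 1 or WT replicate 3 the difference in the mean log2 sum was 0.15, without WT replicate 4 it was 0.52 and without K187R replicate 4 it was 0.20.

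The members varied more between samples than most genes did. Their median ratio of the highest to the lowest sample was 3.12, against 1.55 over all 16982 genes with a mean of at least 10. A ratio of 2 or more was found in 35 members (85.4%) and in 31.0% of all these genes, and a ratio of 5 or more in 11 members (26.8%) and in 6.5% of all. The lowest sample was WT replicate 1 for 20 members and WT replicate 3 for 16. These 2 samples were the lowest pair for 32 members (78.0%, against 11.4% of all genes). K187R replicate 1 stood with them as the lowest 3 for 21 members (51.2%, against 7.87%).

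The upper end of the range divided the members. In 14 of them (34.1%, against 8.46% of all genes) the highest 3 samples were those of set 2. These were Spi1, Cd33, Cybb, Aif1, Csf1r, Fcgr2b, Tlr2, Clec4e, C1qa, C1qb, C1qc, Sirpa, Cd14 and Lilrb4a. In 12 others (29.3%, against 11.6%) the samples of set 3 were the highest pair. These were Lpl, Fcgr1, Cd68, Ccl6, Arg1, Trem2, Mrc1, Gpnmb, Tyrobp, Tlr8, Fcgr3 and Lyz2. Since the sets were drawn from other genes of the same samples, these counts are a description.

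**Figure D1:**
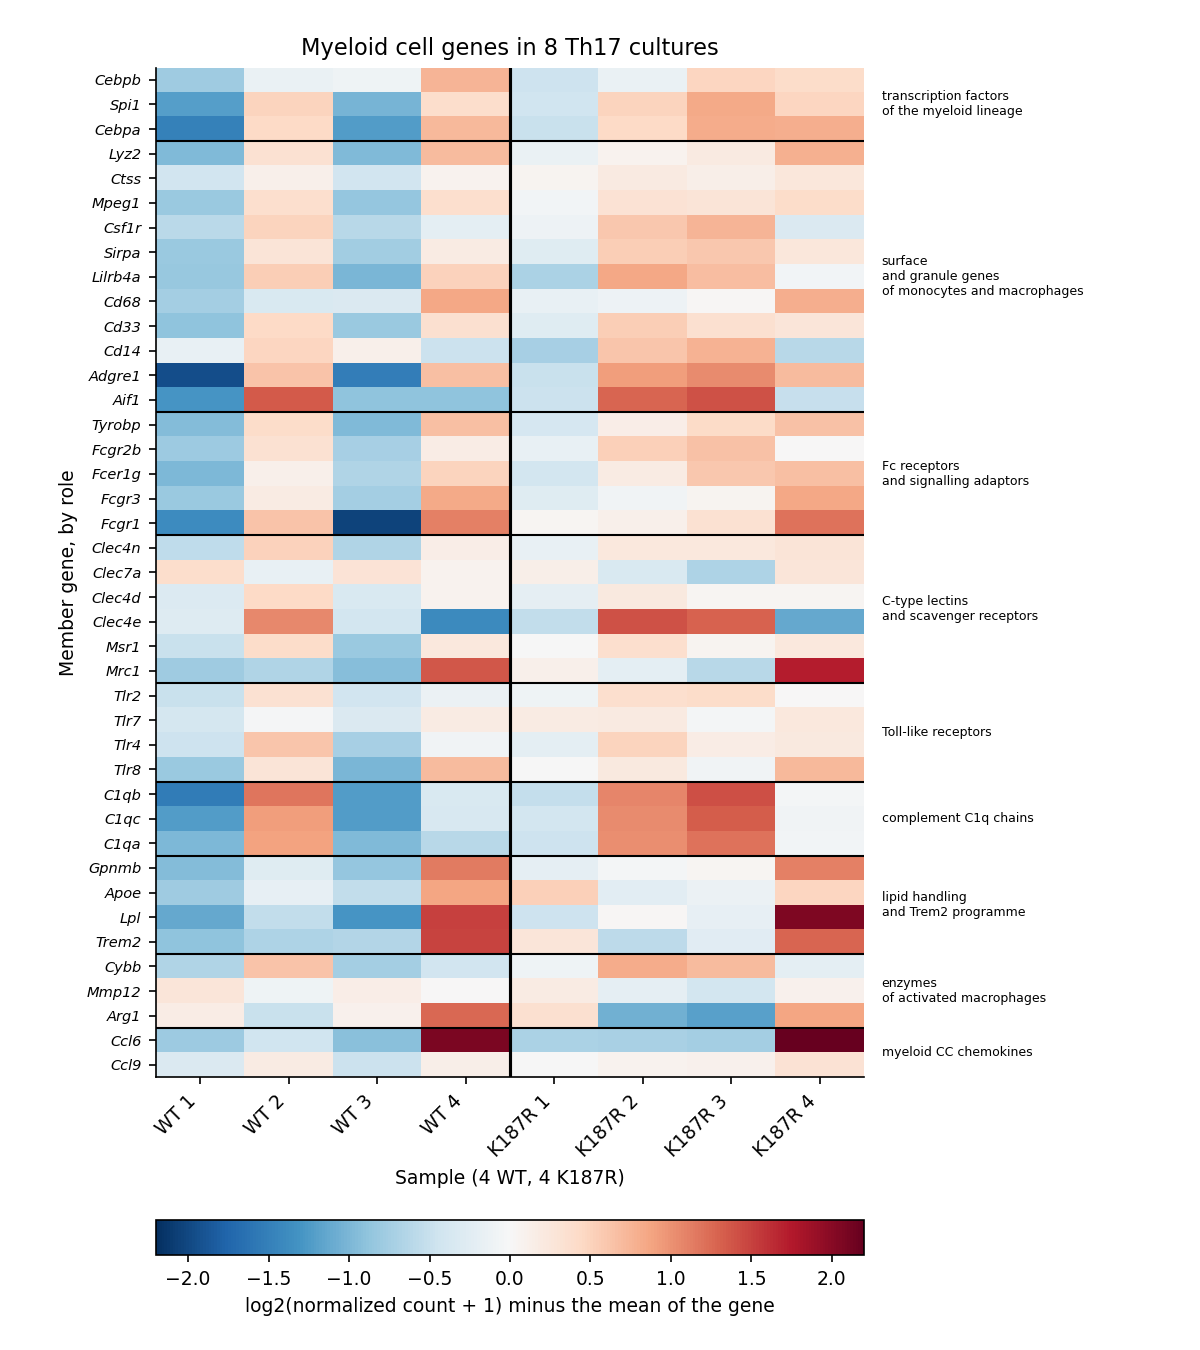
Levels of the 41 members (rows, by role) in the 4 WT and 4 K187R samples (columns), as log2(normalized count + 1) minus the mean of the gene over the 8 samples, with red above and blue below that mean. WT replicates 1 and 3 are blue for most members, C1qa, C1qb, C1qc, Aif1 and Clec4e are reddest in WT replicate 2 and K187R replicates 2 and 3, and Ccl6, Lpl, Mrc1 and Trem2 in the samples numbered 4.

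The difference between the groups is given in each account below as a log2 fold change, the K187R mean minus the WT mean of log2(normalized count + 1), which understates changes of low genes. It was tested with limma over the 16982 genes, with the Benjamini-Hochberg adjustment and a threshold of 0.05. No member passed (0 of 41), and over all genes 0 passed (0%). At an unadjusted p-value under 0.05 there were 746 genes by limma, 467 higher in K187R (2.75%) and 279 lower (1.64%), and 1 member, Ctss, was among the higher. By edgeR on the recovered reads the counts were again 0 genes and 0 members, with 729 genes and 0 members at an unadjusted p-value under 0.05. DESeq2 on the same reads called 31 genes (0.227%) and 0 members, and gave no p-value for Lpl and Ccl6. The adjusted p-values of the members from limma lay between 0.921 and 0.998, so they are not repeated below, and p-values of single members are from exact two-sided permutation tests of the 8 samples, which cannot fall below 0.0286 with 4 samples a group.

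Of the transcription factors of the myeloid lineage, Spi1 and Cebpa were lowest in WT replicates 1 and 3, and Cebpb in WT replicate 1. Spi1 (ENSMUSG00000002111, chr2:91082390-91115756) encodes PU.1, which myeloid cells and B cells need. Spi1 had 339.8, 1108, 386 and 1031 normalized counts in WT replicates 1 to 4, and 581, 1113, 1413 and 1094 in K187R replicates 1 to 4. The WT samples fell into a low and a high pair, K187R replicate 1 lay between them, and the groups overlapped. With means of 716 ± 409 in WT and 1049.9 ± 345 in K187R (SD, n = 4 each), the log2 fold change of Spi1 was 0.68 with a standard error of 0.429 (exact two-sided permutation test, p = 0.2).
Cebpa (chr7:35119293-35121928), the factor that commits progenitors to granulocytes and monocytes, ranged from 181 to 899 normalized counts, and its ratio to Spi1 stayed between 0.53 and 0.82. It stood at 482 ± 333 in WT and 712 ± 249.6 in K187R (SD, n = 4 each), and its log2 fold change was 0.79. Cebpb, a C/EBP factor of activated macrophages that many other cells also make, was 1140.0 ± 513 in WT and 1205 ± 358 in K187R (SD, n = 4 each) (log2 fold change 0.13, standard error 0.315), and 20.7% of its exonic bases overlap Tmem189 on the other strand. Neither passed the test.

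Of the surface and granule genes, 11 members, Lyz2 was the most abundant per length. It encodes lysozyme M (ENSMUSG00000069516, chr10:117277331-117282321), made by macrophages and granulocytes. Per kilobase of exon Lyz2 had a mean of 27785 normalized counts and Ctss 14895, with Clec4n next at 3103, while Fcgr1, Mrc1 and Trem2 were the least abundant at 23.3, 25.2 and 39.7. Lyz2 had 17025, 42242, 17030.0 and 54522 normalized counts in WT replicates 1 to 4, and 30153, 35455, 38318 and 57778 in K187R replicates 1 to 4. The samples numbered 4 were the highest of their groups and WT replicates 1 and 3 the lowest, nearly level with each other. The log2 fold change was 0.46 (standard error 0.388), from 32705 ± 18784 in WT and 40426 ± 12052 in K187R (SD, n = 4 each), and the exact two-sided permutation test gave p = 0.371.
Ctss (chr3:95526786-95556403) encodes cathepsin S, the lysosomal protease that prepares class II molecules for peptides. Ctss had 14903, 21599, 14979 and 20934 normalized counts in WT replicates 1 to 4, and 20804, 22973, 21907 and 23718 in K187R replicates 1 to 4. Ctss varied less than the other members of this role, with a ratio of highest to lowest of 1.59. Only K187R replicate 1 lay below any WT sample, namely below WT replicates 2 and 4. Ctss averaged 18104 ± 3662 in WT and 22350.5 ± 1271 in K187R (SD, n = 4 each), and its difference of 0.32 on the log2 scale (standard error 0.133) did not pass (exact two-sided permutation test, p = 0.0857). Its unadjusted p-value from limma was 0.0366, before adjustment over all genes to 0.921.
Sirpa (chr2:129592835-129632228), a receptor that restrains phagocytosis when it meets CD47, followed Ctss in the order of unadjusted p-values from limma, at 0.0799. Sirpa had 1598, 3395, 1642 and 3162 normalized counts in WT replicates 1 to 4, and 2338, 4082, 4229 and 3349 in K187R replicates 1 to 4. K187R replicates 2 and 3 were above all WT samples, and K187R replicates 1 and 4 were below WT replicate 2. The group means were 2449 ± 962 in WT and 3499.8 ± 865 in K187R (SD, n = 4 each), which is 0.57 as a log2 fold change (standard error 0.288, exact two-sided permutation test, p = 0.2).
Csf1r encodes the receptor for the growth factor M-CSF, on which most macrophages depend. Csf1r had 1986, 4219.6, 1974 and 2598 normalized counts in WT replicates 1 to 4, and 2782, 4508, 5074 and 2423 in K187R replicates 1 to 4. The samples of set 2 were the highest, and K187R replicate 4 was below WT replicate 4. With means of 2694 ± 1058 in WT and 3697 ± 1293 in K187R (SD, n = 4 each), the log2 fold change of Csf1r was 0.46 with a standard error of 0.298 (exact two-sided permutation test, p = 0.229). Of its exonic bases 15.1% overlap Hmgxb3 on the other strand, and whether the counting used strand is not stated, so reads of the 2 genes cannot be told apart there.
Adgre1 (chr17:57358691-57483527) encodes the F4/80 antigen, a classical label of mouse macrophages. Adgre1 had 107, 648, 145 and 662 normalized counts in WT replicates 1 to 4, and 296, 795, 863 and 679 in K187R replicates 1 to 4. Lowest were WT replicates 1 and 3, and K187R replicate 1 was below WT replicates 2 and 4. Over all 8 samples it had the largest log2 fold change of the members by limma, while C1qc had the largest by edgeR (0.83), Lpl with the sample set in limma (0.59) and others with some samples left out. The log2 fold change was 1.09 (standard error 0.629), from 391 ± 306 in WT and 658 ± 253 in K187R (SD, n = 4 each), and the exact two-sided permutation test gave p = 0.171.
Cd68 (chr11:69664213-69666153), a lysosomal glycoprotein of macrophages, followed the other pattern. Cd68 had 762, 1021, 1029 and 2308 normalized counts in WT replicates 1 to 4, and 1147, 1184, 1308 and 2229 in K187R replicates 1 to 4. The samples numbered 4 had the highest levels in both groups, and the remaining samples overlapped. Cd68 averaged 1280.1 ± 697 in WT and 1467 ± 513 in K187R (SD, n = 4 each), and its difference of 0.27 on the log2 scale (standard error 0.334) did not pass (exact two-sided permutation test, p = 0.486).
Aif1 (chr17:35170991-35176068) encodes IBA1, an actin-bundling protein of macrophages and microglia. Aif1 had 39.2, 249, 52.4 and 52.3 normalized counts in WT replicates 1 to 4, and 70.04, 239, 258 and 68.5 in K187R replicates 1 to 4. The samples of set 2 lay between 239 and 258, and the other 5 between 39.2 and 70.04. The group means were 98.2 ± 100.7 in WT and 159 ± 104 in K187R (SD, n = 4 each), which is 0.85 as a log2 fold change (standard error 0.652, exact two-sided permutation test, p = 0.2).
Of the remaining genes of this role, Mpeg1 encodes a pore-forming protein of phagocytes, Cd33 a sialic acid-binding receptor, Cd14 the co-receptor for bacterial lipopolysaccharide and Lilrb4a an inhibitory receptor. Mpeg1 ranged from 3373 to 8047, with a log2 fold change of 0.47. Cd33 ranged from 422 to 1136, with a log2 fold change of 0.45. Cd14 ranged from 376 to 1058, its group means differed by 0.02 on the log2 scale, and this sign turned to -0.22 with the sample set in the limma model. Lilrb4a was between 621 and 2239.7, with a log2 fold change of 0.39, and other genes cover 35.9% of its exon bases. The sign of Cd14 also turned under quantile normalization (-0.014) and with either WT replicate 1, WT replicate 4, K187R replicate 2 or K187R replicate 3 left out (down to -0.24). Over all 8 samples each of the 11 genes of the role had a higher mean log2 value in K187R, with a median log2 fold change of 0.46, and 0 passed the test.

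**Figure D2:**
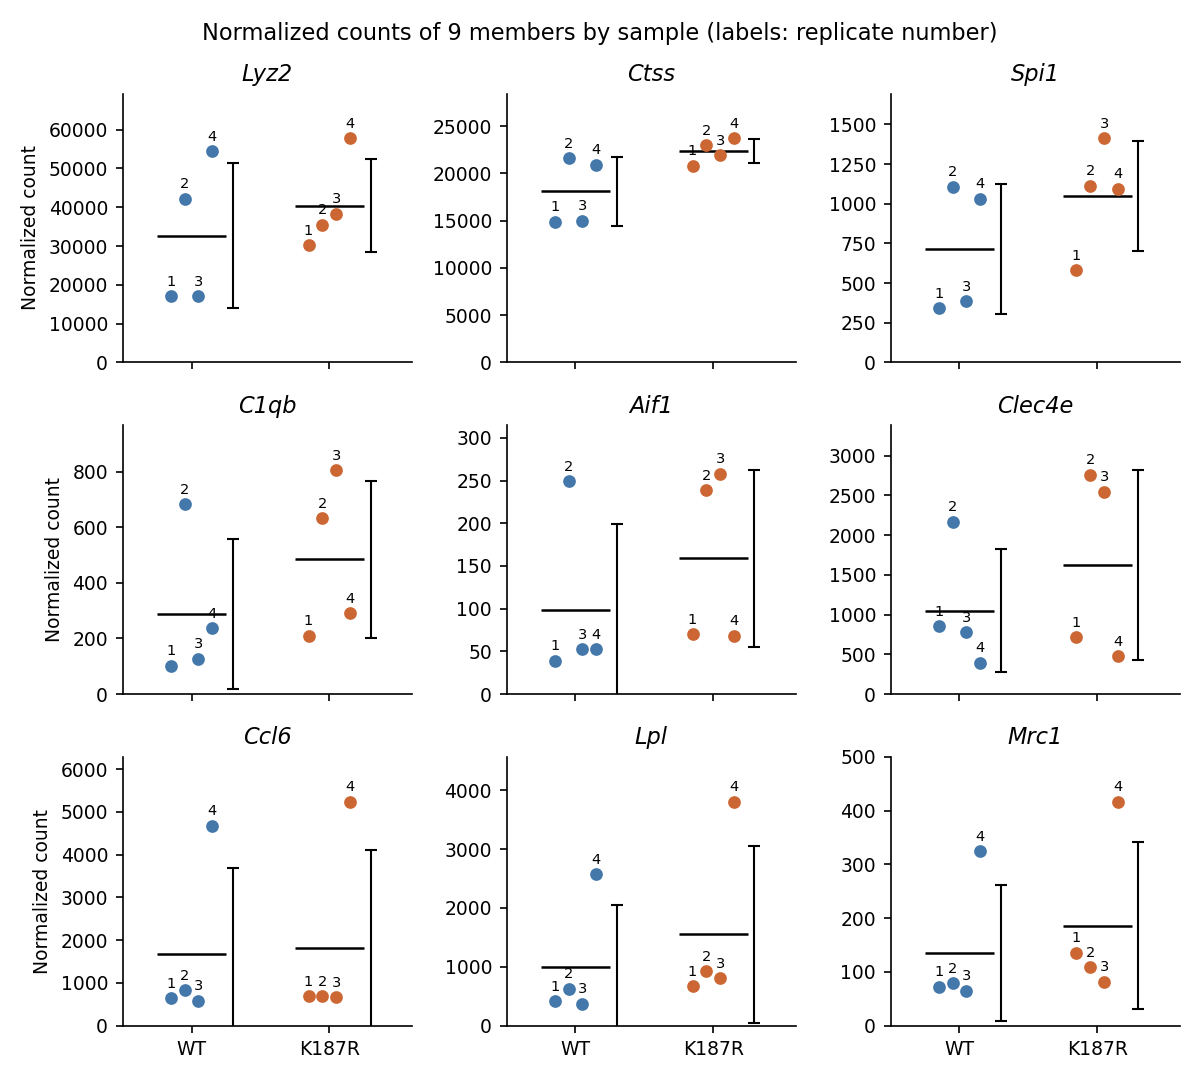
Normalized counts of 9 members in each sample, on linear axes from 0, with the replicate number above each point. Horizontal lines are group means, and the bars beside them reach 1 SD to each side (n = 4), cut off at 0 where they would go below it. WT replicates 1 and 3 are the lowest points for Lyz2, Ctss and Spi1, set 2 is apart for C1qb, Aif1 and Clec4e, and the samples numbered 4 are apart for Ccl6, Lpl and Mrc1.

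The Fc receptors bind antibodies on particles, and they signal through adaptors that other myeloid receptors share. Fcer1g (chr1:171229572-171234365) encodes the common signalling chain of Fc receptors. Fcer1g had 522, 1121, 653 and 1453 normalized counts in WT replicates 1 to 4, and 779, 1172, 1552 and 1629 in K187R replicates 1 to 4. The lowest 3 samples were WT replicates 1 and 3 and K187R replicate 1, and the others overlapped. With means of 937 ± 429 in WT and 1283 ± 390.5 in K187R (SD, n = 4 each), the log2 fold change of Fcer1g was 0.51 with a standard error of 0.342 (exact two-sided permutation test, p = 0.229).
Tyrobp (chr7:30413760-30417585) encodes DAP12, the adaptor of Trem2 and other receptors. Tyrobp had 581, 1482, 576 and 1789 normalized counts in WT replicates 1 to 4, and 873, 1245, 1506 and 1749 in K187R replicates 1 to 4. WT replicate 4 was the highest sample, ahead of K187R replicate 4. The log2 fold change was 0.42 (standard error 0.394), from 1107 ± 623 in WT and 1343 ± 375 in K187R (SD, n = 4 each), and the exact two-sided permutation test gave p = 0.371. The ratio of Tyrobp to Fcer1g stayed between 0.88 and 1.32, while each gene varied 3.11-fold or 3.12-fold.
Fcgr1 (chr3:96282909-96293969), the high-affinity receptor for IgG, was the member with the lowest mean. Fcgr1 had 17.8, 75.0, 10.99 and 105 normalized counts in WT replicates 1 to 4, and 49.7, 52.1, 61.1 and 111 in K187R replicates 1 to 4. WT replicates 1 and 3 were the lowest samples, above the detection floor of 3 reads, and the K187R samples lay within the range of the WT samples save for replicate 4. Fcgr1 averaged 52.3 ± 45.6 in WT and 68.5 ± 28.8 in K187R (SD, n = 4 each), and its difference of 0.84 on the log2 scale (standard error 0.666) did not pass (exact two-sided permutation test, p = 0.371).
Fcgr2b, the inhibitory IgG receptor, was 976 ± 385 in WT and 1344 ± 356 in K187R (SD, n = 4 each), and Fcgr3, an activating one, was 839 ± 468 in WT and 953 ± 366 in K187R (SD, n = 4 each). Their log2 fold changes were 0.51 and 0.28. Fcgr2b was highest in set 2 and Fcgr3 in set 3, although both lie with Fcer1g within 275.7 kb of chromosome 1. All 5 genes had a higher mean in K187R, and 0 passed the test.

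The C-type lectins recognise sugars of fungi and bacteria, and the scavenger receptors take up modified lipoproteins and glycoproteins. Clec4n (dectin-2), Clec4d and Clec4e (Mincle) are neighbours within 60.03 kb of chromosome 6, and their levels followed different samples. Clec4e had 852, 2169.9, 781 and 392 normalized counts in WT replicates 1 to 4 and 714, 2759, 2549 and 474 in K187R replicates 1 to 4. It was highest in set 2 and lowest in the samples numbered 4, a range of 7.04-fold. Clec4d ranged only 1.72-fold, so the ratio of Clec4e to Clec4d went from 0.25 in WT replicate 4 to 1.64 in K187R replicate 3. Clec4n, at 2679 to 6064 normalized counts, kept a ratio of 2.26 to 3.34 to Clec4d. The log2 fold changes were 0.52 for Clec4e (exact permutation test, p = 0.514), 0.06 for Clec4d and 0.28 for Clec4n, and that of Clec4d became -0.08 with the sample set in the limma model.
Clec7a (dectin-1), the receptor for fungal glucans, which GENCODE M21 types as a polymorphic pseudogene, was among the few members with a lower mean in K187R. Clec7a had 2463, 1677, 2324 and 1999 normalized counts in WT replicates 1 to 4, and 2072, 1490.3, 1179.8 and 2276 in K187R replicates 1 to 4. WT replicate 1 was the highest sample and K187R replicate 3 the lowest. The group means were 2116 ± 351 in WT and 1754 ± 508 in K187R (SD, n = 4 each), which is -0.30 as a log2 fold change (standard error 0.21, exact two-sided permutation test, p = 0.286).
Mrc1 (chr2:14229392-14332057) encodes the mannose receptor, a label of alternatively activated macrophages. Mrc1 had 72.5, 78.8, 65.1 and 324 normalized counts in WT replicates 1 to 4, and 136, 108, 82.2 and 417 in K187R replicates 1 to 4. The samples numbered 4 stood apart from all others, and in each set the K187R samples were above the WT samples. With means of 135 ± 126 in WT and 186 ± 156 in K187R (SD, n = 4 each), the log2 fold change of Mrc1 was 0.51 with a standard error of 0.609 (exact two-sided permutation test, p = 0.457). Fitted with the sample set, the log2 fold change was 0.55 (standard error 0.177), and limma's adjusted p was 0.4495. Without the set in the model, its log2 fold change was 0.021 with K187R replicate 4 left out and 1.05 with WT replicate 4 left out.
Msr1, scavenger receptor A, was 842 ± 322 in WT and 1003 ± 119 in K187R (SD, n = 4 each), and its log2 fold change was 0.33.

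The Toll-like receptors had a median ratio of highest to lowest sample of 2.21, the smallest of the roles described here, with ratios of highest to lowest from 1.54 for Tlr7 to 3.30 for Tlr8. Tlr7 and Tlr8, which sense RNA in endosomes, are neighbours within 87.9 kb of the X chromosome. Tlr7 had 417, 538, 438 and 624 normalized counts in WT replicates 1 to 4, and 618, 628, 535 and 641 in K187R replicates 1 to 4. The range ran from WT replicate 1 to K187R replicate 4. The log2 fold change was 0.28 (standard error 0.144), from 504 ± 95.7 in WT and 606 ± 47.9 in K187R (SD, n = 4 each), and the exact two-sided permutation test gave p = 0.143. Tlr8 had 93.0 to 307 normalized counts, highest in the samples numbered 4, and a log2 fold change of 0.42. Tlr2, which reads bacterial lipopeptides, was 1455 ± 397 in WT and 1826 ± 315 in K187R (SD, n = 4 each), and its log2 fold change was 0.35 (exact permutation test, p = 0.114). Tlr4, the receptor for lipopolysaccharide, was 352 ± 153 in WT and 419 ± 82.3 in K187R (SD, n = 4 each), and its log2 fold change was 0.32. All 4 had a higher mean in K187R and 0 passed the test.

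The chains of C1q, the molecule that starts the classical complement pathway, are encoded by C1qa, C1qb and C1qc within 18.7 kb of chromosome 4, and tissue macrophages are their main source. C1qa (ENSMUSG00000036887) is described in full and the others by their ratio to it. C1qa had 90.3, 334, 91.3 and 118 normalized counts in WT replicates 1 to 4, and 131, 366, 416 and 172 in K187R replicates 1 to 4. Set 2 was above every other sample, WT replicates 1 and 3 were lowest, and the groups overlapped. C1qa averaged 158 ± 118 in WT and 271 ± 141 in K187R (SD, n = 4 each), and its difference of 0.85 on the log2 scale (standard error 0.494) did not pass (exact two-sided permutation test, p = 0.171).
C1qb had 102, 684, 127 and 237 normalized counts in WT and 209, 632, 806 and 291 in K187R, replicates 1 to 4 in each, and C1qc had 99.8, 443, 99.8 and 185 and 176, 484, 592 and 223. The ratio of C1qb to C1qa lay between 1.13 and 2.05 and that of C1qc to C1qa between 1.09 and 1.57, and in all 3 genes set 2 was highest, K187R replicate 4 came next and WT replicates 1 and 3 were lowest. Their ranges were 4.61-fold for C1qa, 7.89-fold for C1qb and 5.93-fold for C1qc. The log2 fold changes of C1qb and C1qc were 0.97 (standard error 0.619) and 0.94 (standard error 0.537), about as large as that of C1qa. Against Csf1r, the ratio of C1qb ranged from 0.0515 in WT replicate 1 to 0.162 in WT replicate 2.

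Lpl, Trem2, Gpnmb and Apoe belong to the lipid-handling programme of macrophages, and all 4 were highest in WT replicate 4 among the WT samples. Lpl (chr8:68880491-68907448) encodes lipoprotein lipase, which frees fatty acids from lipoproteins. Lpl had 418, 629, 372 and 2572 normalized counts in WT replicates 1 to 4, and 667, 929.5, 802 and 3805 in K187R replicates 1 to 4. Both samples numbered 4 lay far above the others, and in each set the K187R samples were above the WT samples. The group means were 998 ± 1056 in WT and 1551 ± 1507 in K187R (SD, n = 4 each), which is 0.73 as a log2 fold change (standard error 0.691, exact two-sided permutation test, p = 0.429). The log2 fold change was 0.16 without K187R replicate 4, and without WT replicate 4 it came to 1.35. With the sample set in the model limma gave 0.59 on the log2 scale, a standard error of 0.098 and an adjusted p of 0.158, and DESeq2 with the set called Lpl at 0.59 (adjusted p = 6.91e-05 from DESeq2), the only member among its 144 calls (1.11% of the genes it tested). DESeq2 with the replicate number as a block likewise called Lpl alone among the members, where 1.34% of all genes passed. Both of these DESeq2 fits were added after the data were seen, and the sets were drawn from these same samples. DESeq2 without the set or the block gave Lpl no p-value.
Trem2, a lipid receptor that signals through DAP12, had 86.7, 99.98, 103 and 451 normalized counts in WT replicates 1 to 4 and 193, 107, 136 and 392 in K187R replicates 1 to 4. Its ratio to Tyrobp ranged from 0.0674 to 0.252, and the log2 fold change was 0.36 (exact permutation test, p = 0.543).
Gpnmb, a glycoprotein of lipid-laden macrophages, ranged from 1540.0 to 6564 and had a log2 fold change of 0.46.
Apoe (chr7:19696109-19699188) encodes apolipoprotein E, the lipid carrier that macrophages secrete. Apoe had 1642, 2499.6, 1958 and 5199.6 normalized counts in WT replicates 1 to 4, and 4101, 2407, 2603 and 3915 in K187R replicates 1 to 4. K187R replicate 1 was high here, above K187R replicate 4, unlike its place for most members. With means of 2825 ± 1622 in WT and 3256 ± 875 in K187R (SD, n = 4 each), the log2 fold change of Apoe was 0.32 with a standard error of 0.337 (exact two-sided permutation test, p = 0.457). All 4 genes of the programme had a higher mean in K187R, although Trem2 did not without K187R replicate 4 (-0.0067), and 0 passed the limma test.

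Of the enzymes, Cybb and Arg1 took opposite patterns. Cybb (chrX:9435252-9487771) encodes the catalytic subunit of the NADPH oxidase that makes superoxide. Cybb had 3991, 9667, 3726 and 4699 normalized counts in WT replicates 1 to 4, and 5846, 11124, 10223 and 5378 in K187R replicates 1 to 4. Set 2 was above all other samples. The log2 fold change was 0.60 (standard error 0.336), from 5521 ± 2794 in WT and 8143 ± 2951 in K187R (SD, n = 4 each), and the exact two-sided permutation test gave p = 0.171.
Arg1 (chr10:24915221-24927484) encodes arginase 1, which breaks down arginine in alternatively activated macrophages. Arg1 had 1299, 822, 1236 and 2801 normalized counts in WT replicates 1 to 4, and 1473, 555, 507 and 2129 in K187R replicates 1 to 4. The samples numbered 4 were the highest and K187R replicates 2 and 3 the lowest. Arg1 averaged 1539 ± 867 in WT and 1166 ± 781 in K187R (SD, n = 4 each), and its difference of -0.52 on the log2 scale (standard error 0.51) did not pass (exact two-sided permutation test, p = 0.486).
Mmp12, the macrophage elastase, was 2688 ± 291 in WT and 2409 ± 441 in K187R (SD, n = 4 each), and its log2 fold change was -0.17 (exact permutation test, p = 0.343). Arg1, Mmp12 and Clec7a were the 3 members with a lower mean log2 value in K187R, where 51.6% of all genes were lower.

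Ccl6 and Ccl9 are chemokines of myeloid cells and neighbours within 20.2 kb of chromosome 11. Ccl6 had 642, 823, 585 and 4680.3 normalized counts in WT replicates 1 to 4, and 687, 682, 663 and 5241 in K187R replicates 1 to 4. The samples numbered 4 were 4680 and 5241, and the other 6 lay between 585 and 823. The group means were 1683 ± 2001 in WT and 1818 ± 2282 in K187R (SD, n = 4 each), which is 0.04 as a log2 fold change (standard error 0.818, exact two-sided permutation test, p = 0.886). Without K187R replicate 4 the log2 fold change of Ccl6 was -0.70, and under quantile normalization it was -0.0077.
Ccl9 ranged only from 953 to 1638, so the ratio of Ccl6 to Ccl9 reached 3.26 (WT) and 3.20 (K187R) in the samples numbered 4 and stayed at 0.47 to 0.61 elsewhere. Its log2 fold change was 0.24.

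The mean log2 value was higher in K187R for 38 of the 41 members, where 48.4% of all genes were higher, and for 36 under quantile normalization, where 44.6% were. The median log2 fold change was 0.42 against -0.01 over all genes. Members are measured in the same 8 samples and are not 41 separate observations. They were also chosen with earlier results of these data known, so these counts and the median are a description. The median was 0.22 without WT replicate 1, 0.24 without WT replicate 3 and 0.65 without WT replicate 4, and 34, 36 and 37 members were then higher. For 0 members were all K187R samples above all WT samples, where 1.47% of all genes were, and for 0 below, where 0.989% were. Within the sample sets the median difference was 0.24, and 12 members (Spi1, Cebpa, Adgre1, Sirpa, Ctss, Fcer1g, C1qa, C1qc, Cybb, Tlr2, Mrc1 and Lpl) were higher in every K187R sample than in every WT sample of its set, where 8.94% of all genes were. With WT replicate 1 or 3 or K187R replicate 2 or 3 left out, every set kept both groups, and that count was 12 to 14. Leaving out WT replicate 2, WT replicate 4, K187R replicate 1 or K187R replicate 4 empties one side of a set. The counts were then 24, 18, 13 and 18, with that set not compared. For 0 members was every K187R sample lower within its set (4.93% of all genes). With the set in the limma model 1 gene (0.00589%) and 0 members passed, and 14 members (Spi1, Cebpa, Adgre1, Sirpa, Ctss, Fcer1g, C1qa, C1qb, C1qc, Cybb, Tlr2, Gpnmb, Mrc1 and Lpl) had an unadjusted p-value under 0.05, where 1394 of all genes (8.21%) had.

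**Figure D3:**
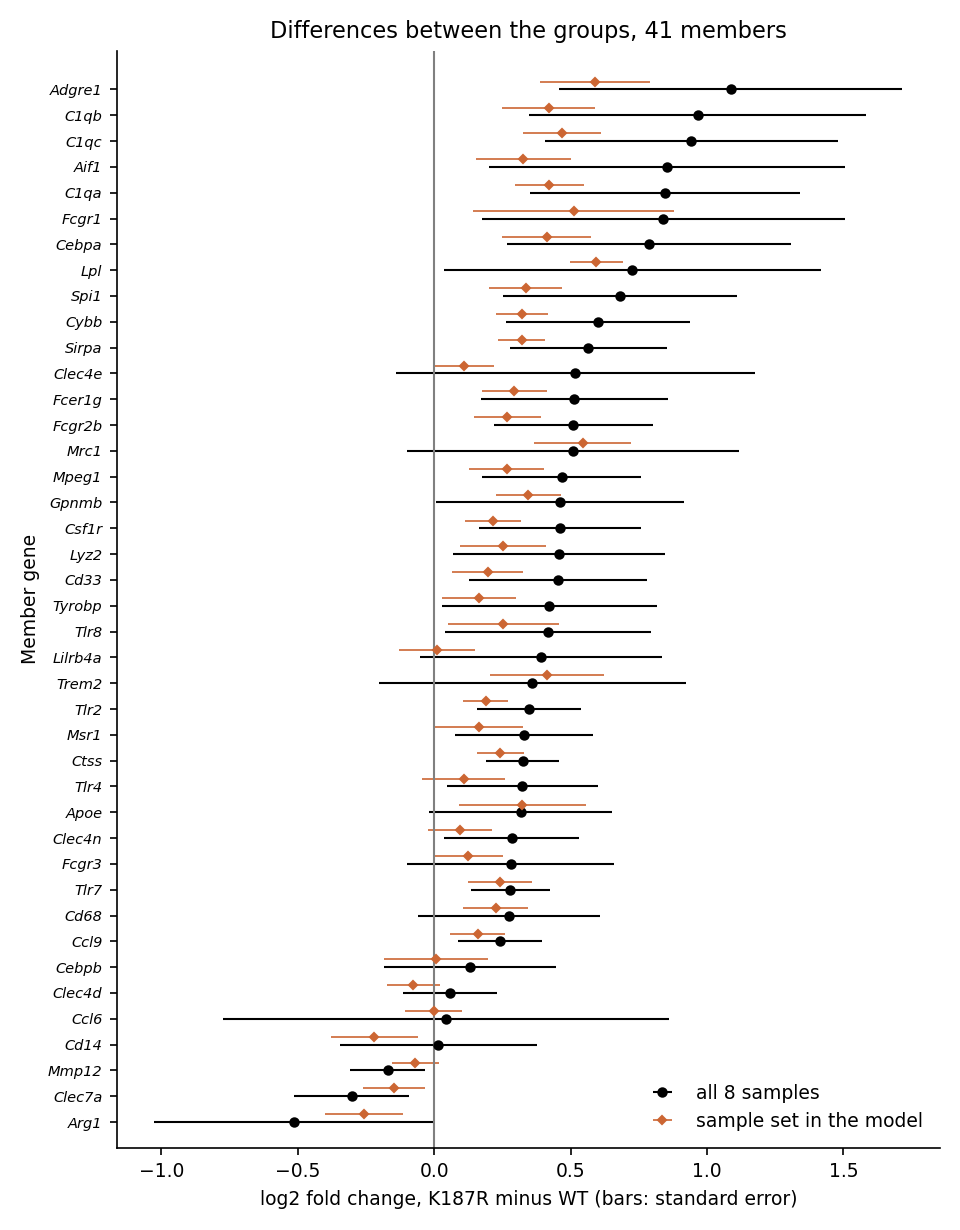
Log2 fold change (K187R minus WT) of each of the 41 members, with bars of 1 standard error to each side, from limma over all 8 samples (black) and with the sample set in the model (orange). From Adgre1 at 1.09 to Arg1 at -0.52 most points lie to the right of 0, and 0 members passed the threshold in either model.

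Genes of other cells moved with the members, and their part in the result was not tested. A second list of monocyte and macrophage genes, 36 of 40 with values, summed to 58240 in WT replicate 1 and 63233 in WT replicate 3, and to between 69636 and 104693 elsewhere. Of its 35 tested genes 32 had a higher mean log2 value in K187R, where 48.4% of all genes had (median log2 fold change 0.46), and 0 passed. Ctsb, a lysosomal protease and the gene with the highest mean on that list, ranged from 17179.7 to 27112.
The neutrophil list of 15 genes varied most. It summed to 6418, 77563, 6035 and 44620 normalized counts in WT replicates 1 to 4 and to 19912, 65393, 66667 and 48049 in K187R replicates 1 to 4, a 12.9-fold range. WT replicates 1 and 3 and K187R replicate 1 were the lowest 3, as they were for 21 members, and set 2 was highest. Mmp8, Mmp9, Ly6g and Retnlg departed from this order, while these 3 samples were lowest for the other genes of the list. Mmp8 was at 1535 in K187R replicate 1 and at 791 to 990 in set 2. Mmp9 was highest in K187R replicate 1 (175), Ly6g was lowest in WT replicate 4 (20.9), and Retnlg had a mean of only 4.67. Ngp, a granule protein of immature neutrophils, ranged from 1268 to 20972. All 14 tested genes of the list had a higher mean log2 value in K187R, where 48.4% of all genes had (median log2 fold change 1.27, 0 passed). The sum was not higher in K187R in every set. In set 2 the WT sample (77563) was above both K187R samples (65393 and 66667), and in sets 1 and 3 the K187R sample was above the WT samples. Lyz2, Cebpa, Fcer1g, Tyrobp, Clec4d and Clec4e are also expressed by neutrophils. Mpo, the peroxidase of early granulocytes and a gene chosen after its values were seen, stood in a ratio to Spi1 of 0.15 in WT replicate 1, 0.21 in WT replicate 3, 0.49 in K187R replicate 1 and 2.28 to 3.02 in the others.
Mast cell and basophil genes (11 genes) summed to 1750 and 1736 in WT replicates 1 and 3, 2282 in K187R replicate 1 and 4865 to 6681 in the others, led by Cpa3, a mast cell protease, at 319 to 2556. Red cell and platelet genes (10 of 12 with values) summed to 512 to 845 in set 1 and 2100.1 to 2585 in the others, led by Itga2b, a platelet integrin chain, at 293 to 1377.
B cell and dendritic cell genes did not follow the sum of the members. The B cell list (10 genes, led by Cd79a, a chain of the B cell receptor, at 68.8 to 366) summed to 533 in WT replicate 4 and 649 in K187R replicate 4, the samples in which the members summed highest in each group, and to 1419 to 2204 elsewhere. The dendritic list (7 of 8 with values, led by Flt3, the receptor of a dendritic growth factor, at 94.1 to 419.7) summed to 247 and 292 in the samples numbered 4 and to 660 to 845 in set 2, and Siglech was at or under 3 reads in every sample. NK and CD8 T cell genes (6 genes, led by Cd8b1 at 254 to 506) summed to 594 to 1248, and fibroblast and endothelial genes (7 genes, led by Pecam1, an endothelial and leukocyte adhesion protein, at 3881 to 6766) to 3932 to 6863. In these 6 lists, from mast cells to endothelium, 0 genes passed the threshold.

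**Figure D4:**
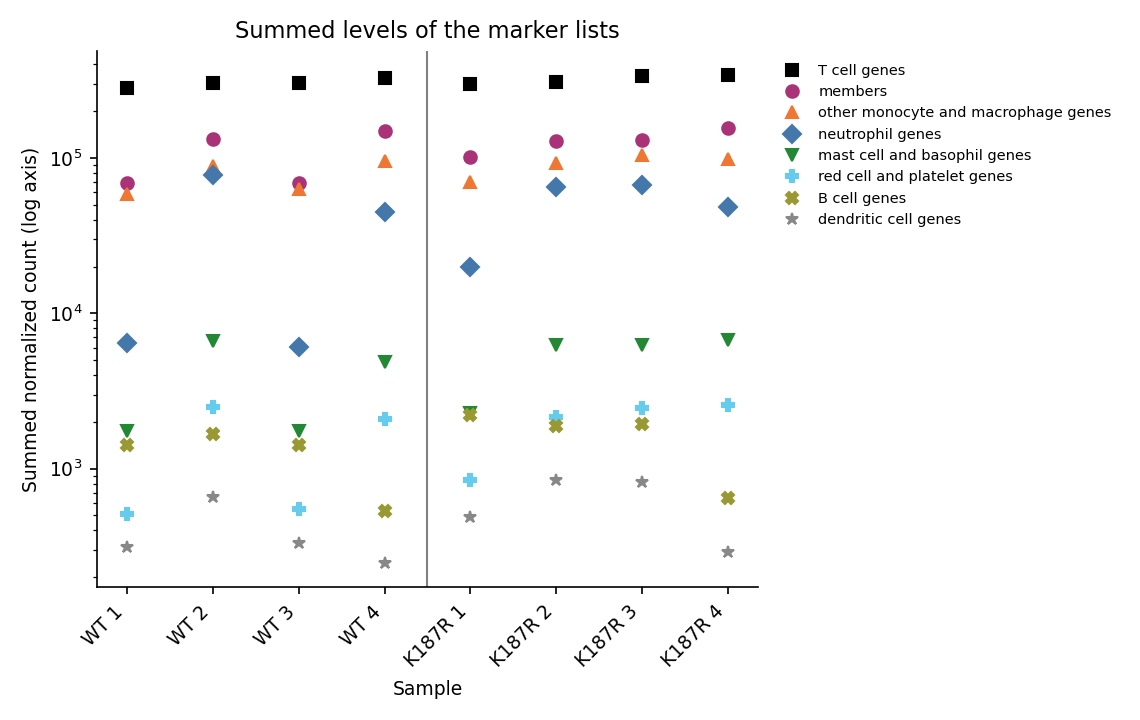
Summed normalized counts of 8 marker lists in each sample, on a log axis. The T cell genes lie level between 282597 and 341133, the members and the other macrophage genes dip in WT replicates 1 and 3, and the neutrophil genes fall there to 6418 and 6035 from 77563 in WT replicate 2.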

How the data were processed

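RNA seq of 8 samples, 4 WT and 4 K187R, was analysed. Per the paper the authors trimmed reads with Cutadapt, aligned them with HiSat2 to GRCm38, counted them with featureCounts on GENCODE M15 and used DESeq2, and the labels also name bcl2fastq. The sources name different library kits. The deposited values are a normalized signal per gene, the reads divided by 1 size factor per sample, and 100% of them were whole reads within 0.1 of a read once the factor was removed.

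Groups and replicate numbers were taken from the labels. The main test was limma (lmFit, eBayes with a trend) on log2(normalized count + 1) of the 16982 genes whose mean was 10 or more, with the Benjamini-Hochberg adjustment, since the deposited values are not counts. The methods named in the sources give no model. The recovered reads entered edgeR's quasi-likelihood test and DESeq2 as alternatives. Other alternatives were a minimum mean of 50 or none, a pseudocount of 0.5 or of 5, quantile normalization, weights per sample, no trend, a block for the replicate number, a factor for the sample set and each sample left out. edgeR and DESeq2 with the block or the set were added after the data were seen. Single members were tested by exact permutation of the 8 samples, 70 arrangements. The fits were also run on simulated counts with known changes, as a check of the code. That simulation held no sample sets, and its spread between samples was set beforehand and not taken from these data. It does not show how the fits behave where samples fall into sets, or for genes as variable as the members. Depth was 52456804 to 74676721 reads, and the floor of 3 reads covers counting error only. Python 3.11.15 was used with matplotlib 3.10.9, pandas 2.3.3, scipy 1.17.1 and numpy 2.4.6, and R 4.3.3 with DESeq2 1.42.0, limma 3.58.1 and edgeR 4.0.16.

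The members and the gene lists were chosen with earlier results of these data known. The level of the targeted gene is not reported here. Every member is named. Values of all samples are given for the 3 members with the lowest p-value, the 3 with the highest and the 3 with the lowest mean, those whose highest sample is at least 5 times the median, and a fixed set (Spi1, Csf1r, Adgre1, Cd68, Lyz2, Fcer1g, Tyrobp, C1qa, Apoe and Arg1). Clec4e, Clec7a, C1qb, C1qc and Trem2 were added after their values were seen. From each other list the gene with the highest mean is named. Coordinates are GRCm38 with GENCODE M21, in which 22784 of the gene identifiers were found and 45 were not. Overlap with exons of other genes was computed on it, and 6 members have some.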

Additional observations from a re-analysis of the deposited data

Results flagged for a closer look

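In 104 groups of 4 samples (the members and the sums of the lists, in WT and in K187R), 15 held a sample farther from the others than Dixon's test allows for 4 samples. Chance flags about 1 in 20 groups of 4 like samples, which would give 5.2, and the members share their samples, so the flags are not independent. All 15 flags fell on WT replicates 2 and 4 and K187R replicates 1 and 4, each the only sample of its group in its set. The 4 samples of a group were therefore not alike, and 5.2 is not an expectation that holds for them.

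In WT replicate 2, Aif1 was 249 against 39.2 to 52.4 normalized counts in the other WT samples, C1qa 334 against 90.3 to 118, and Cybb 9667 against 3726 to 4699. In WT replicate 4, Ccl6 was 4680 against 585 to 823, Lpl 2572 against 372 to 629, Mrc1 324 against 65.1 to 78.8, and Trem2 451 against 86.7 to 103. In K187R replicate 4, Ccl6 was 5241 against 663 to 687, Lpl 3805 against 667 to 929.5, Mrc1 417 against 82.2 to 136, Cd68 2229 against 1147 to 1308, and Gpnmb 6414 against 2612 to 3076.

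In K187R replicate 1 the flagged values were low. Clec4n was 3782 against 4986 to 5156 in the other K187R samples, the mast cell and basophil genes summed to 2282 against 6270 to 6681, and the NK and CD8 T cell genes summed to 594 against 1162 to 1235. No cause was tested for any of these values.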

How the results depend on the processing

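Of 943 member values under 23 alternatives, 913 kept direction and side of the threshold, 2 kept direction with no p-value (Lpl and Ccl6 in DESeq2), 2 rose past it and 26 turned sign, in 5 members. The number of genes past the threshold was 0 in limma. It was 3 with sample weights, 1 with the sample set in limma and in edgeR, 31 in DESeq2, 144 in DESeq2 with the set, and 0 to 4 with 1 sample left out, 4 being without WT replicate 4. With sample weights 3168 genes and 26 members had an unadjusted p-value from limma under 0.05, against 746 genes and 1 member in the main fit. Members past the adjusted threshold were 0 throughout save 1, Lpl, in DESeq2 with the set and in DESeq2 with the replicate block. The cause was not tested.

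Samples with the same replicate number did not all deviate together. The correlation across genes of how far they lay from their group mean was 0.59, 0.66, -0.09 and 0.63 for numbers 1 to 4, and WT replicate 3 correlated best with K187R replicate 1. With the replicate block, limma gave 0 genes (2046 at an unadjusted p-value under 0.05) and 0 members (19 unadjusted), with a median of 0.42, edgeR 0 genes, and DESeq2 174 genes (1.34%) and 1 member, Lpl at 0.72 (adjusted p = 6.12e-06 from DESeq2).

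Signs turned under quantile normalization for Ccl6 (-0.0077) and Cd14 (-0.014). With the sample set in limma they turned for Ccl6 (-0.0016), Clec4d (-0.077) and Cd14 (-0.22), in edgeR for Clec4d (-0.077), Cd14 (-0.21) and Cebpb (-0.0028), and in DESeq2 for Ccl6 (-0.00037), Clec4d (-0.078), Cd14 (-0.21) and Cebpb (-0.0010). With 1 sample left out the ranges reached below 0 for Ccl6 (-0.70 to 0.74), Clec4d (-0.044 to 0.22), Cd14 (-0.24 to 0.26), Cebpb (-0.11 to 0.40) and Trem2 (-0.0067 to 0.91). For 36 members the log2 fold change moved by over 1.5 times with 1 sample left out, for Lpl from 0.16 to 1.35 and for Mrc1 from 0.021 to 1.05. The median over members ranged from 0.22 to 0.80 over all alternatives, the highest with sample weights, and from 0.22 to 0.65 with 1 sample left out. The summed difference was 0.29 per kilobase of exons and 0.15 to 0.52 with 1 sample left out.

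Depth limits Fcgr1 most, the member with the fewest reads. With 4 samples a group, differences of single members of the size seen here did not pass the limma threshold.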
